A study of Homo sapiens with 4 samples.

Results

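The autophagy machinery was followed at the transcript level in Sorafenib-treated cells labelled HepG2, a human liver cancer cell line. Members were chosen by gene symbol alone: the numbered *ATG* genes, *ULK1* to *ULK4*, the LC3 and GABARAP genes, *WIPI1* and *WIPI2*, and 14 further genes of initiation, cargo recognition and the lysosome (*BECN1*, *PIK3C3*, *PIK3R4*, *UVRAG*, *AMBRA1*, *RB1CC1*, *SQSTM1*, *NBR1*, *OPTN*, *CALCOCO2*, *TFEB*, *TFE3*, *LAMP1* and *LAMP2*). The symbols held 45 members among 28278 listed genes, and 42 members were among the 15150 genes with enough counts to be tested. The ferritinophagy receptor *NCOA4* and the ferritin genes are not named by these symbols and were described as a separate list.

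The comparison had 2 groups with 2 libraries each. Control cells had received a lentivirus carrying Cas9 and a control sgRNA, and the cells labelled *USP22* knockout (sgUSP22) a lentivirus carrying Cas9 and an sgRNA against *USP22*, the deubiquitinase subunit of the SAGA chromatin complex. They were kept as stably infected populations. Before RNA was taken, both groups had 24 h of Sorafenib at 10 µM, and a group without Sorafenib was not analysed here, so no value below measures the effect of the drug. The labels do not say whether the replicates of a group were separate cultures, so the p-values measure only the spread between these libraries, which may be technical.

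Macroautophagy encloses cytoplasm in a double membrane that is delivered to the lysosome. A kinase complex (ULK1, ATG13, ATG101 and the scaffold RB1CC1) starts it, a lipid kinase complex marks the membrane, and 2 ubiquitin-like conjugation reactions attach LC3 and GABARAP proteins to it, where cargo receptors bind. In ferritinophagy, NCOA4 carries the iron store ferritin into this route, and the iron released there can feed the lipid peroxidation of ferroptosis, a form of cell death that Sorafenib is known to provoke in liver cancer cells. Most steps of the machinery are controlled on the protein, by phosphorylation and lipid attachment, which transcript counts do not measure.

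The libraries held between 62030307 and 64728272 counts. Levels are given as CPM, counts relative to the library total after TMM scaling. A gene listed at 0 may still have up to 3 counts, which is 0.0457 to 0.0492 CPM across the libraries and covers counting error only. The transcript of the targeted gene went against its label. *USP22* (chr17:20999596-21043760, hg38) had 16450 and 16537 counts in the control and 20279 and 20368 counts in the sgUSP22 libraries, higher by 0.22 on the log2 scale with a standard error of 0.0341 (edgeR's quasi-likelihood test, Benjamini-Hochberg adjusted p = 0.000394). A guide that makes small deletions need not lower the transcript, so the label was not checked by this value, and every direction given here follows the label. The paper reports that Western blots showed the efficiency of *USP22* knockout and knockdown in its infected cells. Protein is not measured by these counts. The labelled cell type was also not visible in its markers. Of 11 hepatocyte markers, 6 were listed at 0 in every library (*ALB*, *APOA1*, *APOB*, *APOC3*, *TTR* and *FGB*), the highest count of any was 19, and their summed level was 0.131 to 0.502 CPM. Of 4 oncofetal markers of HepG2, *GPC3* was at 0, *AFP* had 4, 0, 4 and 0 counts, and the sum was 0.457 to 0.59 CPM. A list of 5 fibroblast genes summed to 636 and 632 CPM in control and to 895 and 897 CPM in sgUSP22 libraries, with *PDGFRA* at 0 in all 4. *COL3A1* had 30410 to 37872 counts. *LUM* rose from 4283 and 3743 to 11988 and 12071 counts (adjusted p = 1.24e-07), and *DCN* from 624 and 585 to 5191 and 4996 counts (adjusted p = 1.56e-09). *COL1A1* did not pass the test (log2 fold change 0.11, adjusted p = 0.175). The leukocyte list fell from 73.8 and 74.2 to 47.2 and 44.2 CPM, nearly all of it the lysosomal glycoprotein gene *CD68* (log2 fold change -0.70, adjusted p = 2.78e-06), with *CD3E* at 0 and *PTPRC* at no more than 4 counts. Endothelial and kidney genes reached at most 17 and 62 counts. These levels moved between the same groups as the genes below, and their part in the results was not tested. In such bulk RNA, fewer cells of a type and less RNA per cell cannot be told apart.

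Across the machinery, differences between the groups were small and went both ways. Of the 42 tested members, 13 rose and 11 fell in the sgUSP22 libraries at an adjusted p under 0.05, and 18 did not pass (edgeR's quasi-likelihood test, Benjamini-Hochberg adjusted over all 15150 tested genes). Among all tested genes, 26.8% rose and 25.8% fell by the same rule. The share of members past the threshold in either direction was 57.1%, against 52.5% of all tested genes and 63.8% of the 10158 genes in the members' range of mean levels. With a fold change of at least 1.5 added, the thresholds of the study's methods, 1 member was higher, *RB1CC1*, where 8.88% of all tested genes were. By the same rule 0 members were lower, where 7.25% of all tested genes were. Without adjustment, 12 members were lower at p under 0.05 and 0 of these reached 1.5-fold, and DESeq2 also called 0 lower. The called share of members was thus 2.38%, against 16.1% of all tested genes and 12.2% in the members' range of levels.

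The median log2 fold change was -0.025 over the members and 0.001 over all tested genes, and the median size without sign was 0.189 over the members, 0.291 over all tested genes and 0.238 in the members' range of levels. Single members ran from -0.52 (*GABARAPL1*) to 0.59 (*RB1CC1*). The groups did not overlap for 36 members, 17 with both sgUSP22 libraries higher and 19 with both lower. Among all tested genes 75.9% did not overlap, 38.3% with the sgUSP22 libraries higher and 37.6% with them lower. The members were well counted, with mean levels of 7.03 to 732 CPM, a median of 63.8 CPM against 23.2 CPM over all tested genes, and no count under 406. Standard errors of the log2 fold change ran from 0.0352 to 0.149 with a median of 0.0479.

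**Figure D1:**
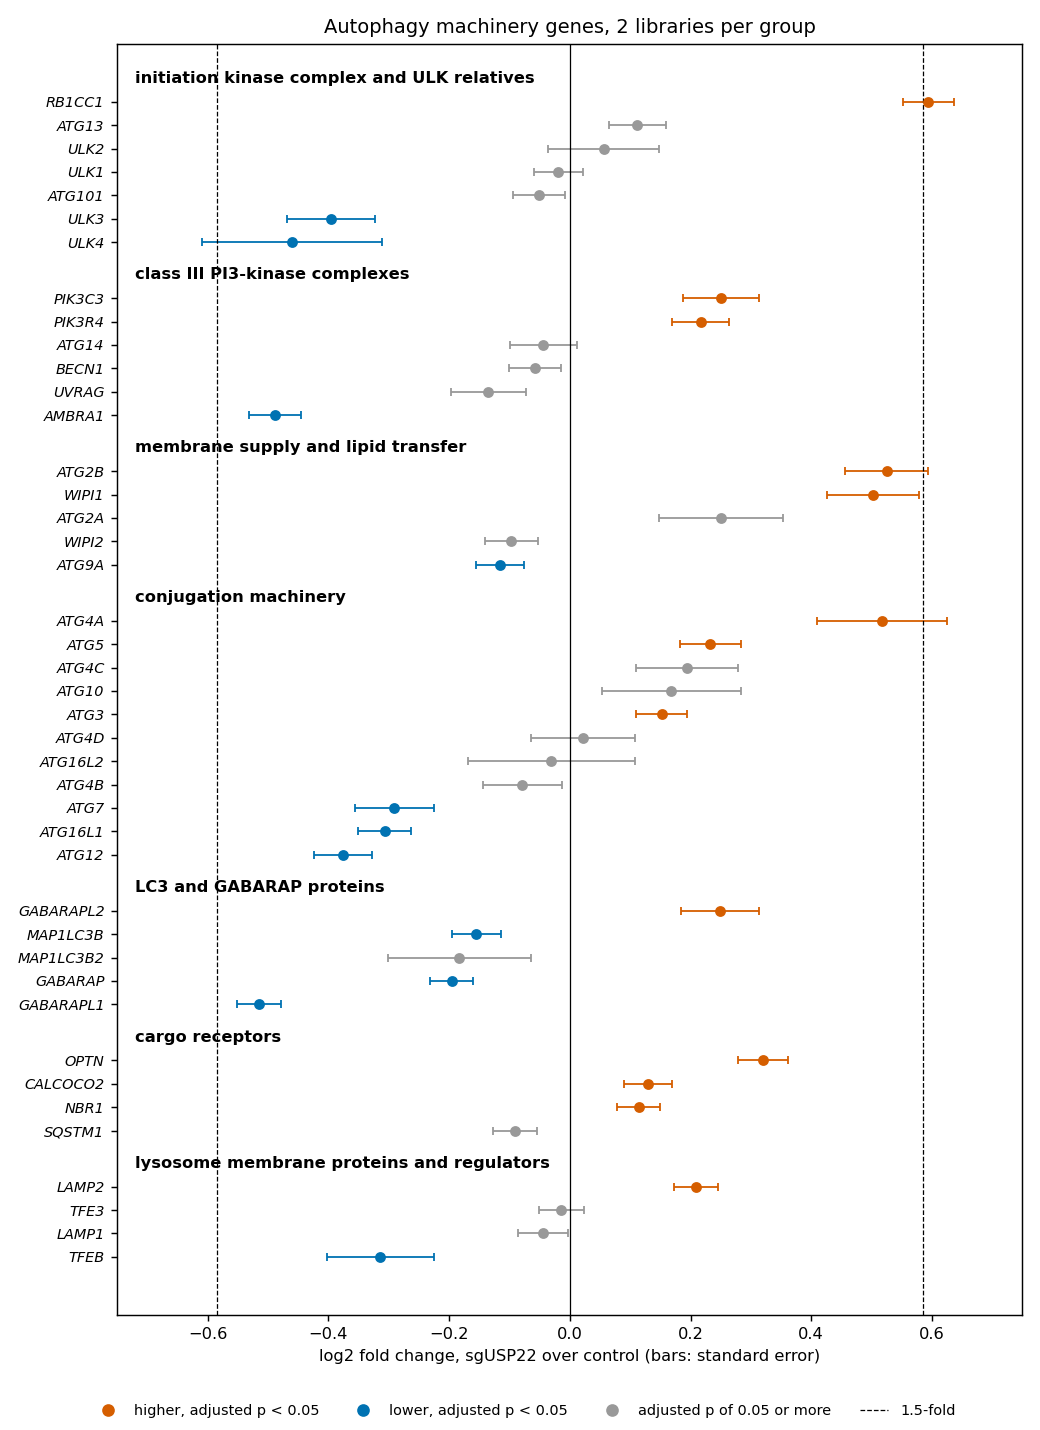
Log2 fold change (sgUSP22 over control) of the 42 tested members by role, with standard errors as bars, 2 libraries per group. Dashed lines mark 1.5-fold, which *RB1CC1* alone reached, and every role group except the cargo receptors held members past the adjusted p threshold on both sides of 0.

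The 3 members left untested belong to families with other members expressed. *MAP1LC3A* was listed at 0, 0, 3 and 0 counts, *MAP1LC3C* at 0 in all 4 libraries and *ATG9B* at 8, 0, 0 and 0 counts. No fold is given for them.

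Reference sequence bears on how these values are read. The first case is the *MAP1LC3B* and *MAP1LC3B2* counts, since the coding sequences of both genes are 378 bases long and differ at 2 positions (99.5% identity), counted from 1 at the start codon and written with the *MAP1LC3B* base first as C30G and A338G. The first 60 coding bases are shown from the GENCODE transcripts of hg38, *MAP1LC3B* from chr16:87383953-87404779 and *MAP1LC3B2* from chr12:116548105-116576606, both on the plus strand, with the differing base in capitals.
MAP1LC3B: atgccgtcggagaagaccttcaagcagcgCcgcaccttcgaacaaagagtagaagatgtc
MAP1LC3B2: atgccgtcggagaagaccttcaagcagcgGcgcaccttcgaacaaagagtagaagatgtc
Reads from most of this coding stretch match both genes, so how the counts were split between them is uncertain.

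The second case is the upstream regions. In the 250 bases before the start, taken from RefSeq on GRCh38.p14, 3 motifs were searched on both strands: the E-box CACGTG and the cAMP response element TGACGTCA, which read the same on both, and the forkhead site TGTTTAC. Of 39 members with an entry, 4 held CACGTG (*LAMP1*, *ATG14*, *ULK3* and *ATG3*), or 10.3%, against 7.73% of 27305 genes. The E-box is the core of the site read by TFEB and TFE3. Of its 4 members, *ATG3* rose, *ULK3* fell, and *LAMP1* and *ATG14* did not pass the test. *LAMP1* held 5 copies. *GABARAPL1* was the only member with TGACGTCA, or 2.56% of members with an entry, against 2.03% of genes. The forkhead site lay before *CALCOCO2* alone, on the minus strand, or 2.56% of members against 3.66% of genes. RefSeq starts can differ from the GENCODE gene ends used for the other positions here, and the stretches of *GABARAPL1* and *ULK3* lie inside the GENCODE spans of these genes. A match is a run of letters and not a measured binding site. The stretches below are given 5′ to 3′ on the gene's strand with each match in capitals, *LAMP1* at chr13:113297036-113297227 on the plus strand, *GABARAPL1* at chr12:10212836-10212865 on the plus strand, and *ULK3* at chr15:74843312-74843339 on the minus strand.
LAMP1: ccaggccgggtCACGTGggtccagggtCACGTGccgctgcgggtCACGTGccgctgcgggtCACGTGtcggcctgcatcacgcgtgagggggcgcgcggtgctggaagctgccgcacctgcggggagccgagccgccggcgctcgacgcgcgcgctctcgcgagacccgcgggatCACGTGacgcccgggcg
GABARAPL1: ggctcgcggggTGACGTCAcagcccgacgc
ULK3: ctccgtatcccCACGTGggccctgcagg

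At the first step, initiation, the scaffold of the kinase complex rose, and the kinase and its other partners did not pass the test as fitted. *RB1CC1* (also called FIP200, chr8:52622458-52745843) had 5575 and 5800 counts in the control and 8869 and 9253 counts in the sgUSP22 libraries, or 91.4 and 93 against 135 and 143 CPM. Both sgUSP22 libraries lay far above both controls, at a log2 difference of 0.594 (1.509-fold, standard error 0.0426, adjusted p = 2.79e-06 by edgeR's quasi-likelihood test), just over the 0.585 that 1.5-fold requires. This call does not hold firmly: the log2 fold change was 0.581 without control replicate 1, 0.550 without sgUSP22 replicate 2 and 0.30 (adjusted p = 0.000108) once trends with GC content and transcript length were removed, each under 1.5-fold, and a test against 1.5-fold itself gave an adjusted p of 1. *ULK1*, the kinase, had 121, 124, 118 and 123 CPM in control replicates 1 and 2 and sgUSP22 replicates 1 and 2, a log2 difference of -0.02 (standard error 0.0406, adjusted p = 0.726), and the groups overlapped. *RB1CC1* counts per *ULK1* count were 0.757 and 0.751 in control and 1.14 and 1.16 in sgUSP22 libraries, or 1.53 times the control ratio. The log2 fold changes lay closer together with the GC and length trends removed, at 0.30 for *RB1CC1* and 0.10 for *ULK1*.

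Of the other partners, *ATG101*, which stabilises ATG13 and is the most abundant of this group per length (26.3 CPM per kb of exons), had 85.5 and 85.9 CPM in control and 84.7 and 80.7 CPM in sgUSP22 libraries (log2 fold change -0.05, standard error 0.0434, adjusted p = 0.357). *ATG13* itself had 96.4 and 94.4 against 107 and 99.2 CPM (log2 fold change 0.11, adjusted p = 0.0673, and 0.0231 without sgUSP22 replicate 2), and *ULK2*, a second ULK1-like kinase, 17.1 and 16.1 against 18.2 and 16.3 CPM (log2 fold change 0.06, adjusted p = 0.647). With the GC and length trends removed, *ATG13* (0.16, adjusted p = 0.017) and *ATG101* (0.15, adjusted p = 0.00902) passed as higher. The ULK relatives best known outside autophagy were lower. *ULK3*, a kinase of Hedgehog signalling and abscission, fell from 36.8 and 33.2 to 26.1 and 27 CPM (log2 fold change -0.40, adjusted p = 0.00119). *ULK4*, a pseudokinase, fell from 10.6 and 12.6 to 7.27 and 9.6 CPM (log2 fold change -0.46, standard error 0.149, adjusted p = 0.0256). *ULK4* had the widest error of all members, and its difference did not pass without control replicate 2 (adjusted p = 0.128) or without sgUSP22 replicate 1 (adjusted p = 0.148).

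The class III PI3-kinase complexes make the lipid PI3P on the growing membrane. Their catalytic and scaffold subunits were slightly higher, the subunits that tell the complexes apart did not pass the test as fitted, and the activator *AMBRA1* was lower. AMBRA1 binds BECN1 and also serves as a substrate receptor of ubiquitin ligases. *AMBRA1* (chr11:46396414-46594125) had 5988 and 6308 counts in the control and 4744 and 4508 counts in the sgUSP22 libraries, or 98.2 and 101 against 72.2 and 69.8 CPM. Both sgUSP22 libraries were clearly below both controls (log2 fold change -0.49, standard error 0.0428, adjusted p = 1.01e-05 by edgeR's quasi-likelihood test), and the value was -0.43 with the GC and length trends removed. *PIK3C3*, the lipid kinase, rose from 29.3 and 28.5 to 34.3 and 34.6 CPM (log2 fold change 0.25, adjusted p = 0.00731), but its sign turned to -0.07 with those trends removed. *PIK3R4*, its scaffold, rose from 57.7 and 60.5 to 68.7 and 68.6 CPM (log2 fold change 0.22, adjusted p = 0.00338), and with the trends removed it was 0.11 (adjusted p = 0.0835). The remaining subunits lay close to the controls. *BECN1*, shared by both complexes, had 73.8 and 73 against 69.7 and 71.3 CPM (log2 fold change -0.06, adjusted p = 0.294). *ATG14*, which directs the complex to autophagy and is the most abundant of the group per length (12.7 CPM per kb), had 64.8 and 64.4 against 65.8 and 59.5 CPM (log2 fold change -0.04, standard error 0.0553, adjusted p = 0.543). *UVRAG*, which replaces it in the endosomal complex, had 39.8 and 38.9 against 37.3 and 34.4 CPM (log2 fold change -0.13, adjusted p = 0.0978, and 0.0495 without sgUSP22 replicate 1), and with the GC and length trends removed it passed as lower (-0.22, adjusted p = 0.0184). Exons of *ATG14* and *BECN1* overlap genes of the opposite strand over 20.8% and 12.4% of their length, and without a stated strand setting such reads cannot be told apart.

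In membrane supply and lipid transfer, *ATG2B* and *WIPI1* rose, *ATG9A* fell and 2 members did not pass the test. ATG2 proteins are channels that carry lipids into the growing membrane. *ATG2B* rose from 28.1 and 27.1 to 37.8 and 41.7 CPM (log2 fold change 0.53, standard error 0.0693, adjusted p = 0.000148), with both sgUSP22 libraries above both controls. *ATG2A* had 20.2 and 20.2 against 21.5 and 26.6 CPM (log2 fold change 0.25, standard error 0.103, adjusted p = 0.0656, and 0.00364 without sgUSP22 replicate 1), and its 2 sgUSP22 libraries differed from each other by more than its lower one differed from the controls. WIPI proteins read PI3P, and WIPI2 recruits ATG16L1. *WIPI1* rose from 22.5 and 20.5 to 30.6 and 30.3 CPM (log2 fold change 0.50, adjusted p = 0.000366), and *WIPI2* had 91.8 and 91 against 87.9 and 83.1 CPM (log2 fold change -0.10, adjusted p = 0.0897, and 0.0457 without sgUSP22 replicate 1). With the GC and length trends removed, *ATG2A* (0.34, adjusted p = 0.0203) and *ATG2B* (0.28, adjusted p = 0.00495) both passed as higher, and the difference between these paralogues was not tested. Counts of *WIPI1* per count of *WIPI2* went from 0.245 and 0.225 to 0.348 and 0.364. Up to 24.4% of the *WIPI1* exons overlap *ARSG* on the opposite strand. *ATG9A*, the scramblase of the vesicles that seed the membrane and the most abundant of the group per length (27.2 CPM per kb), fell by 0.12 on the log2 scale, from 134 and 134 to 126 and 121 CPM (standard error 0.0394, adjusted p = 0.0316). This difference was 0.00 (adjusted p = 0.94) with the GC and length trends removed and had an adjusted p of 0.0573 in DESeq2. It also missed the threshold without control replicate 1 (0.0873), control replicate 2 (0.0854) or sgUSP22 replicate 2 (0.182).

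**Figure D2:**
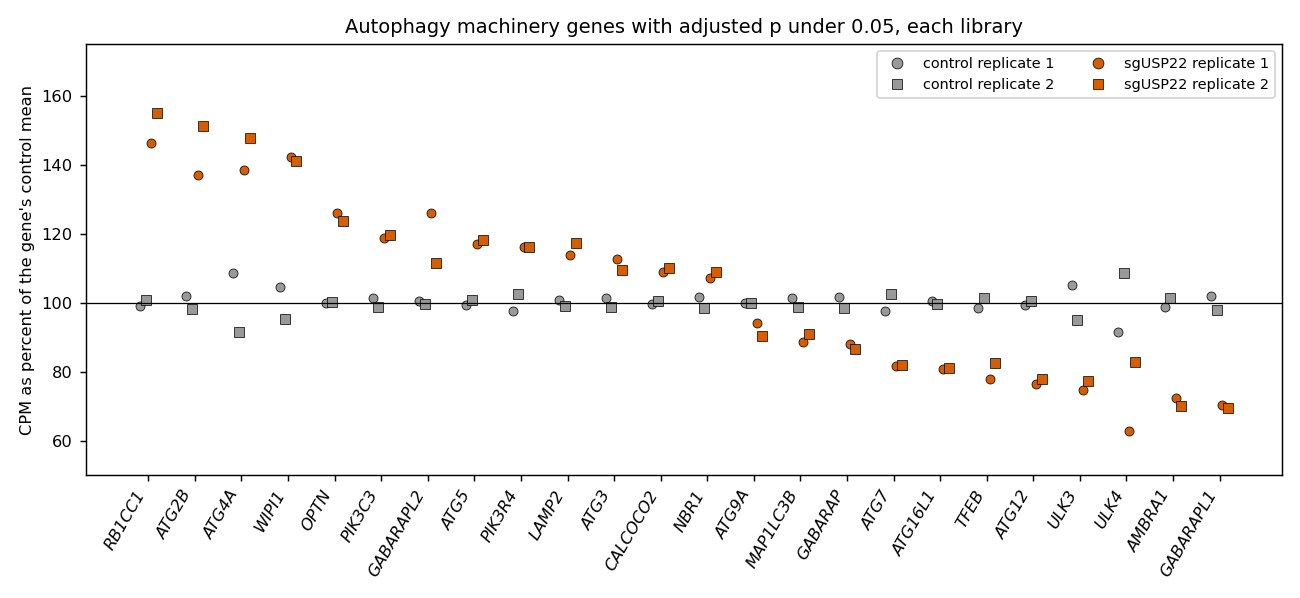
CPM of the 24 members past the adjusted p threshold in each library, as percent of the gene's control mean (circles replicate 1, squares replicate 2, grey control, orange sgUSP22). The sgUSP22 libraries lie on 1 side of both controls for each gene, and the spread between replicates is widest for *ULK4* and *ATG4A*.

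In the conjugation machinery, the components of 1 enzyme complex moved in opposite directions. ATG12 is joined to ATG5 by ATG7 and ATG10, and the product binds ATG16L1 to form the ligase that attaches LC3 to lipid. *ATG12* (chr5:115828200-115841837) fell from 3563 and 3686 to 2948 and 2950 counts, or from 58.4 and 59.1 to 44.9 and 45.7 CPM (log2 fold change -0.38, standard error 0.0487, adjusted p = 0.000131). Replicates of *ATG12* agreed closely in both groups. Its transcript has a GC content of 36.1%, among the lowest of the members, and with the GC and length trends removed its log2 fold change was -0.62 (adjusted p = 5.4e-06), past 1.5-fold. *ATG5* rose from 41.3 and 41.9 to 48.7 and 49.1 CPM (log2 fold change 0.23, adjusted p = 0.00352). With the trends removed it was 0.05 (adjusted p = 0.422). *ATG16L1* fell from 74.4 and 73.8 to 59.9 and 60 CPM (log2 fold change -0.31, standard error 0.0439, adjusted p = 0.000252). *ATG5* counts per *ATG12* count were 0.707 and 0.709 in control and 1.09 and 1.07 in sgUSP22 libraries, and per *ATG16L1* count 0.555 and 0.568 against 0.814 and 0.818. These ratios compare libraries for the same pair of genes and are not molar ratios.

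*ATG7*, the E1-like enzyme that activates both ATG12 and LC3, fell from 33.2 and 34.9 to 27.8 and 27.9 CPM (log2 fold change -0.29, adjusted p = 0.00395, with 18.1% of its exons overlapping *VGLL4* on the opposite strand). *ATG3*, the E2-like enzyme of LC3 and the most abundant of the group per length (14.4 CPM per kb), rose from 84.5 and 82.2 to 93.9 and 91.3 CPM (log2 fold change 0.15, standard error 0.0419, adjusted p = 0.0118), but did not pass without control replicate 2 (adjusted p = 0.0712) or sgUSP22 replicate 1 (adjusted p = 0.108). *ATG10*, the E2-like enzyme of ATG12, stood at 0.17 on the same scale (standard error 0.115, adjusted p = 0.254). Of the ATG4 proteases, which trim LC3 and GABARAP proteins and release them from lipid, 1 of 4 passed the test. *ATG4A*, the protease that prefers GABARAP proteins, rose from 12.7 and 10.7 to 16.2 and 17.3 CPM (log2 fold change 0.52, standard error 0.108, adjusted p = 0.00257). *ATG4B*, *ATG4C* and *ATG4D* were at log2 fold changes of -0.08 (adjusted p = 0.348), 0.19 (adjusted p = 0.0816) and 0.02 (adjusted p = 0.857), and *ATG4D* passed as higher with the GC and length trends removed (0.24, adjusted p = 0.0392). *ATG16L2*, the ATG16L1 paralogue, was at -0.03 (adjusted p = 0.874), with overlapping groups.

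Among the LC3 and GABARAP transcripts, *GABARAPL1*, *GABARAP* and *MAP1LC3B* fell and *GABARAPL2* rose. *GABARAPL1* (chr12:10212458-10223128) had 16825 and 16530 counts in the control and 12495 and 12154 counts in the sgUSP22 libraries, or 276 and 265 against 190 and 188 CPM. The groups stood well apart (log2 fold change -0.52, standard error 0.0365, adjusted p = 2.6e-06 by edgeR's quasi-likelihood test), and the value was -0.46 with the GC and length trends removed. *GABARAP*, the most abundant member of all per length (137 CPM per kb), fell from 290 and 281 to 251 and 247 CPM (log2 fold change -0.20, standard error 0.0352, adjusted p = 0.00106). *MAP1LC3B*, whose protein is the usual marker of autophagosomes, fell from 109 and 106 to 95.3 and 97.8 CPM (log2 fold change -0.16, adjusted p = 0.00869), which did not pass without control replicate 1 (adjusted p = 0.0526). Its near copy *MAP1LC3B2* had 9.48 and 10.2 against 9.28 and 8.06 CPM (log2 fold change -0.18, adjusted p = 0.225). The family was not lower throughout. *GABARAPL2*, also called GATE-16, rose from 45.2 and 44.9 to 56.8 and 50.2 CPM (log2 fold change 0.25, adjusted p = 0.00828), and did not pass without sgUSP22 replicate 1 (adjusted p = 0.138). The *GABARAPL2* to *GABARAPL1* ratio of counts was 0.164 and 0.169 in control and 0.299 and 0.267 in sgUSP22 libraries.

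The cargo receptors tie ubiquitinated material to LC3 and GABARAP proteins. Of the 4, 3 rose by small amounts, and the most abundant did not pass the test. *SQSTM1*, which encodes p62 and stood second of all members per length (97.2 CPM per kb), had 737 and 773 against 725 and 694 CPM (log2 fold change -0.09, standard error 0.0363, adjusted p = 0.0603), and 21% of its exons overlap genes of the opposite strand. *OPTN*, a receptor for mitochondria and bacteria, rose from 73.1 and 73.2 to 92.1 and 90.5 CPM (log2 fold change 0.32, standard error 0.041, adjusted p = 0.000123). *NBR1*, a p62 partner that also binds peroxisomes, rose from 231 and 224 to 244 and 248 CPM (log2 fold change 0.11, adjusted p = 0.0211). *CALCOCO2*, which encodes NDP52, rose from 87.4 and 88.3 to 95.6 and 96.7 CPM (log2 fold change 0.13, adjusted p = 0.0194). The groups did not overlap for any of the 4 receptors, as for 75.9% of all tested genes. With the GC and length trends removed, *NBR1* (0.04, adjusted p = 0.363) and *CALCOCO2* (0.06, adjusted p = 0.196) did not pass. *CALCOCO2* missed the threshold on leaving out any 1 library, at log2 fold changes of 0.122 to 0.138. *NBR1* missed the threshold without control replicate 2 (0.093), sgUSP22 replicate 1 (0.115) or sgUSP22 replicate 2 (0.101). *SQSTM1* passed the threshold, as lower, without control replicate 1 or without sgUSP22 replicate 1.

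At the lysosome, *LAMP2*, whose product is a membrane protein needed for fusion and for chaperone-mediated autophagy, rose from 179 and 176 to 202 and 208 CPM (log2 fold change 0.21, standard error 0.036, adjusted p = 0.000827). It was the second lowest member in GC content (36%), and with the GC and length trends removed its sign turned (-0.11, adjusted p = 0.0203). *LAMP1*, the most abundant of the group per length (65 CPM per kb), had 371 and 387 against 380 and 354 CPM, with overlapping groups (log2 fold change -0.05, standard error 0.0415, adjusted p = 0.394). TFEB and TFE3 are the transcription factors that switch on lysosome and autophagy genes once they enter the nucleus, which counts do not show. *TFEB* fell from 17.2 and 17.7 to 13.6 and 14.4 CPM (log2 fold change -0.31, standard error 0.0882, adjusted p = 0.0131). That difference had an adjusted p of 0.318 with the trends removed and of 0.0569 without control replicate 2. *TFE3* (30.7 CPM per kb) had 129 and 130 against 129 and 128 CPM (log2 fold change -0.01, standard error 0.0366, adjusted p = 0.779), and passed as higher with the trends removed (0.11, adjusted p = 0.0191).

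Base composition moved with these differences. Over the 42 members the Spearman correlation of transcript GC content with the log2 fold change was -0.41, and over 14384 genes it was -0.25, a description across genes that share the same 4 libraries. The GC content of the 13 members that rose was 36% to 49.1% with a median of 43.7%, and that of the 11 that fell 36.1% to 64.7% with a median of 50.2%. With the trends of GC content and length removed from each library, 12 members were higher and 11 lower at an adjusted p under 0.05, and 7 of these 12 and 9 of these 11 were in the set without the correction. The 7 were *RB1CC1*, *ATG2B*, *WIPI1*, *ATG3*, *ATG4A*, *GABARAPL2* and *OPTN*. The 9 were *ULK3*, *ULK4*, *AMBRA1*, *ATG7*, *ATG12*, *ATG16L1*, *MAP1LC3B*, *GABARAP* and *GABARAPL1*. Added by the correction were *ATG13*, *ATG101*, *ATG2A*, *ATG4D* and *TFE3* as higher and *UVRAG* and *LAMP2* as lower. Whether composition had a part in the remaining differences was not tested.

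**Figure D3:**
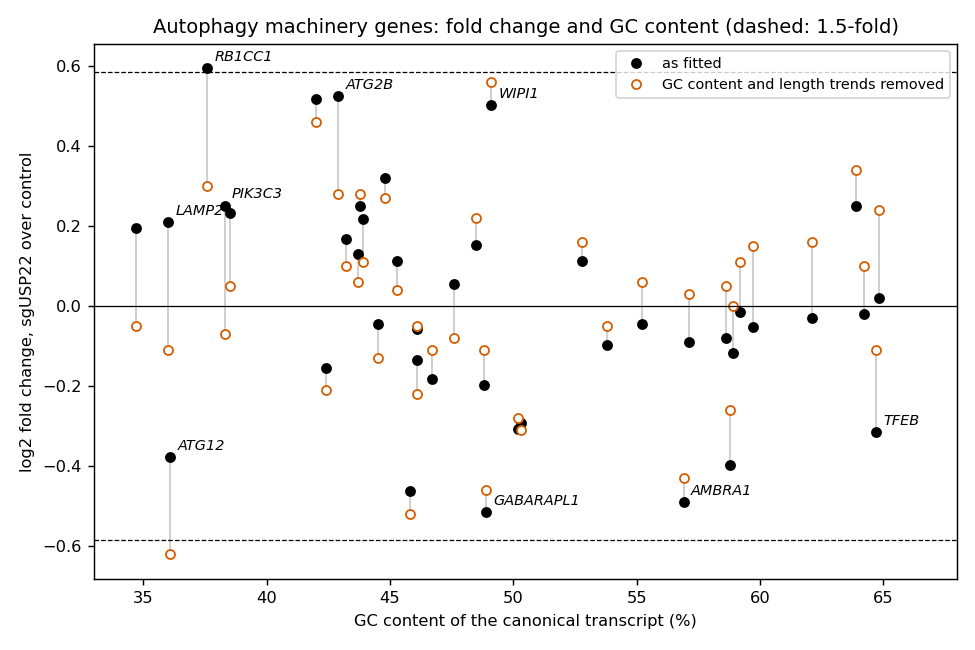
Log2 fold change (sgUSP22 over control) of the 42 tested members against the GC content of the canonical transcript in percent, as fitted (filled) and with GC content and length trends removed (open), joined by lines. The filled points tend downwards to the right (Spearman correlation -0.41), *RB1CC1* moves from 0.59 to 0.30 and *ATG12* from -0.38 to -0.62.

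For ferritinophagy, the receptor and its cargo went in opposite directions. All 7 tested genes of a list of 8 passed the adjusted p threshold, 3 higher and 4 lower. Of all tested genes 52.5% passed it, and 63.8% of those in the members' range of levels. In the list 0 reached 1.5-fold by edgeR or by DESeq2. By edgeR, 16.1% of all tested genes and 12.2% of those in that range were called. *FTH1* and *FTL* lie above the members' range, which ends at 732 CPM, so its shares are not matched in level for them. The mitochondrial ferritin *FTMT* was listed at 0. *NCOA4*, the receptor that carries ferritin to the lysosome, fell from 10984 and 11722 to 9772 and 9619 counts, or on average from 184 to 149 CPM (log2 fold change -0.31, standard error 0.0379, adjusted p = 9.87e-05). *FTH1*, the ferritin heavy chain, rose from 254864 and 250387 to 389577 and 366752 counts, or from 4097 to 5805 CPM (log2 fold change 0.50, standard error 0.0295, adjusted p = 8.51e-07). *FTL*, the light chain, rose from 72620 and 77107 to 97655 and 93891 counts, or from 1214 to 1470 CPM (log2 fold change 0.28, standard error 0.0305, adjusted p = 4.55e-05). For all 3 genes both sgUSP22 libraries lay beyond both controls. *NCOA4* counts per *FTH1* count were 0.0431 and 0.0468 in control and 0.0251 and 0.0262 in sgUSP22 libraries, or 0.571 times the control ratio.

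The ferritin genes have processed pseudogenes, and *FTH1* exons overlap *BEST1* on the opposite strand, so their counts carry an uncertainty that the errors do not show. Iron regulatory proteins hold back the translation of ferritin transcripts when iron is low, and protein was not measured in these files. With the GC and length trends removed, *FTH1* stood at 0.61, past 1.5-fold, *FTL* at 0.48 and *NCOA4* at -0.39. Of the other genes, *TAX1BP1*, an adaptor of ferritin clustering with NCOA4, fell from 207 to 180 CPM (log2 fold change -0.20, adjusted p = 0.000942), and *HERC2*, the ubiquitin ligase that turns NCOA4 over when iron is high, rose from 8570 and 9108 to 11584 and 11192 counts (log2 fold change 0.29, adjusted p = 0.000152). The iron chaperones that load ferritin were both lower, *PCBP1* from 374 to 325 CPM (log2 fold change -0.20, adjusted p = 0.00167, but 0.163 with the trends removed) and *PCBP2* from 760 to 689 CPM (log2 fold change -0.14, adjusted p = 0.00289). Their counts are uncertain too, since 73.2% of the *PCBP1* exons overlap *PCBP1-AS1* on the opposite strand and 18.8% of the *PCBP2* exons overlap another gene.

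The place in the genome moved with part of this list. *NCOA4* lies on chromosome 10 from position 46005088, and the 50 tested genes starting within 5 Mb of it had a median log2 fold change of -0.347, beside -0.31 for *NCOA4* itself. Beyond 40 Mb on that chromosome, 431 tested genes had a median of -0.41 and 82.1% were lower, and the 124 before it had a median of 0.07. This boundary was taken from earlier work on these same data, so the split describes the shift and does not test it. Around *TAX1BP1* on chromosome 7 the median was -0.308, and around *HERC2* on chromosome 15 it was 0.224. Around *FTH1* and *FTL* it was -0.127 and -0.120, against rises of these genes. DNA copy number was not measured in these files, and the part of position in these values was not tested. Around the members *RB1CC1*, *AMBRA1*, *GABARAPL1* and *ATG12* the medians were 0.102, 0.112, 0.023 and 0.175, the last 3 of the opposite sign to the gene. For *ATG16L1*, *MAP1LC3B*, *ATG9A* and *GABARAP*, which all fell, they were -0.146, -0.123, -0.097 and -0.063, of the same sign as the gene. Members thus had neighbours of either sign, and these examples were picked after their values were seen.

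**Figure D4:**
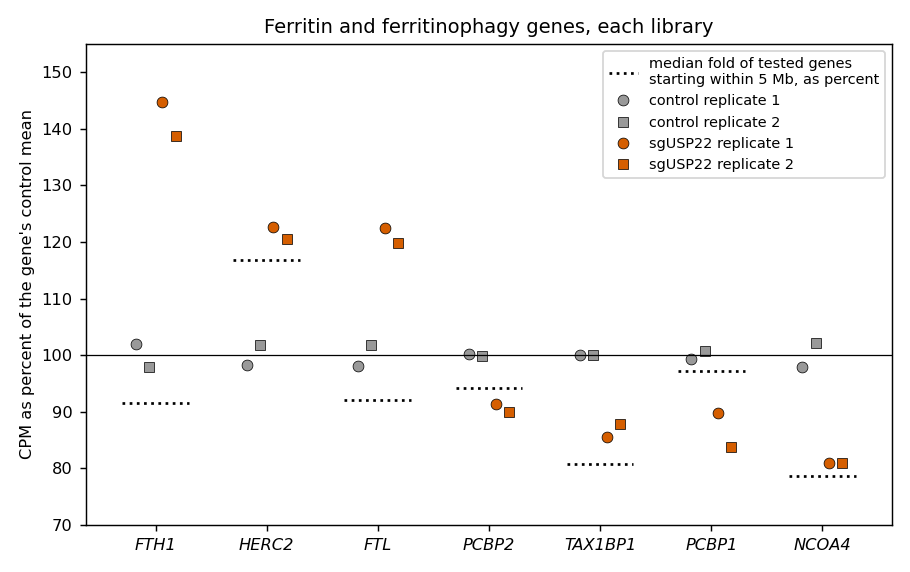
CPM of the 7 tested ferritin and ferritinophagy genes in each library as percent of the gene's control mean, with the dotted line giving the median fold of tested genes starting within 5 Mb. For *NCOA4*, *TAX1BP1*, *HERC2*, *PCBP1* and *PCBP2* the sgUSP22 points lie on the same side of 100 as the dotted line. The points of *FTH1* and *FTL* lie above 100 where the lines are below it.

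Some single differences in the pathways around the core machinery were larger than any among the members. Over 7 lists with 147 tested genes, 48 rose and 52 fell at an adjusted p under 0.05, or 68%. Among all tested genes 52.5% passed, and 63.8% in the members' range of levels. At 1.5-fold, 12 listed genes were called higher and 6 lower, or 12.2%. That compares with 16.1% of all tested genes and 12.2% in the members' range of levels. The median size of the log2 fold change without sign was 0.221 over these lists and 0.189 over the members. In the members' range of levels it was 0.238. The difference between these lists and the members was not tested. The receptors of mitophagy and ER-phagy carry mitochondria or endoplasmic reticulum into autophagosomes. In this list 8 of 17 tested genes rose and 4 fell at an adjusted p under 0.05, or 70.6%. Among all tested genes 52.5% passed, and 63.8% in the members' range of levels. At 1.5-fold, 5 of the 17 were called higher and 2 lower. That is 41.2%, against 16.1% of all tested genes and 12.2% of those in the members' range of levels. The list was chosen with earlier results of these data known. *TBK1*, the kinase that phosphorylates OPTN and p62, rose from 37.3 to 60.7 CPM (log2 fold change 0.70, standard error 0.0524, adjusted p = 3.61e-06). The ER-phagy receptors *SEC62* (73.8 to 120 CPM, log2 fold change 0.71), *ATL3* (103 to 167 CPM, 0.70) and *CALCOCO1* (30.9 to 46.3 CPM, 0.59) rose with it, with adjusted p-values of 6.37e-07, 8.54e-07 and 3.33e-05. The remaining gene called higher was *RETREG1*, also an ER-phagy receptor. The 2 genes called lower encode mitophagy receptors, *BNIP3* from 44.6 to 24.1 CPM (log2 fold change -0.89, adjusted p = 2.2e-06) and the inner membrane receptor *PHB2* from 298 to 194 CPM (log2 fold change -0.62, adjusted p = 6.37e-07). Mitophagy genes were not lower throughout. *PINK1*, not called, rose (log2 fold change 0.49, adjusted p = 1.99e-05) and stood at 0.62 with the GC and length trends removed. *BCL2L13* and *FKBP8* fell, and *BNIP3L* and *FUNDC1* did not pass. Of the ER-phagy genes not called, *CCPG1* rose, and *RTN3* and *TEX264* did not pass. *BNIP3* also lies beyond 40 Mb on chromosome 10, where its neighbours within 5 Mb had a median of -0.628. *TBK1* (0.49), *SEC62* (0.40), *ATL3* (0.43), *CALCOCO1* (0.57) and *RETREG1* (0.46) were under 1.5-fold with the GC and length trends removed. So was *PHB2* (-0.44), and *BNIP3* (-0.92) stayed past it.

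Upstream of initiation, mTORC1 holds ULK1 inactive when amino acids are at hand and AMPK activates it. Of 34 tested genes of this control, 11 rose and 10 fell, with 4 called higher and 1 lower. The called share was 14.7%, against 16.1% of all tested genes and 12.2% in the members' range of levels. The sestrins, leucine-sensing and stress-induced inhibitors of mTORC1, rose, *SESN1* from 9.67 to 19.1 CPM (log2 fold change 0.98, adjusted p = 1.52e-05) and *SESN2* from 14 to 24.8 CPM (log2 fold change 0.83, adjusted p = 2.12e-05). *FLCN*, which lets mTORC1 hold TFEB and TFE3 in the cytoplasm, rose from 30.3 to 46.9 CPM (log2 fold change 0.63, adjusted p = 1.59e-05), and *SLC38A9*, the lysosomal arginine sensor, from 4.48 to 8.65 CPM (log2 fold change 0.95, adjusted p = 0.000375). *DDIT4*, which encodes the mTORC1 inhibitor REDD1, fell from 37934 and 37726 to 18201 and 17472 counts, or 613 to 274 CPM (log2 fold change -1.16, standard error 0.0339, adjusted p = 1.12e-08). Inhibitors of mTORC1 were therefore found in both directions, and *DDIT4* lies on chromosome 10 among neighbours with a median of -0.409. All these called genes stayed past 1.5-fold with the GC and length trends removed. *SESN1* was then at 0.78, *SESN2* at 0.95, *FLCN* at 0.73, *SLC38A9* at 0.82 and *DDIT4* at -0.99.

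Further along the route, *VMP1*, a scramblase of the endoplasmic reticulum needed for membrane closure, was the only called gene among 13 other phagophore factors and rose from 102 to 161 CPM (log2 fold change 0.66, standard error 0.0496, adjusted p = 3.84e-06). Of these 13, 5 rose and 2 fell. Its annotated exons include the gene of the microRNA miR-21, whose precursor may share these counts. Of 20 genes of autophagosome-lysosome fusion, 6 rose and 6 fell. *RILP*, an adaptor of RAB7, was the only one called, lower from 8.72 to 4.11 CPM (log2 fold change -1.09, adjusted p = 0.000213). *VMP1* was under 1.5-fold with the GC and length trends removed (0.51), and *RILP* stayed past it (-0.83). Of the 17 subunits of the vacuolar ATPase, which acidifies the lysosome, 4 rose, 7 fell and 0 were called by edgeR or DESeq2. Among all tested genes 26.8% rose, 25.8% fell and 16.1% were called, and 12.2% were called in the members' range of levels. The called share of the fusion list was 5%.

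Among 39 tested lysosomal hydrolases and membrane proteins, 11 rose and 19 fell, or 76.9%. Among all tested genes 52.5% passed, and 63.8% in the members' range of levels. In each direction 2 of the 39 were called, or 10.3%, against 16.1% of all tested genes and 12.2% in that range. *CTSS*, cathepsin S, rose from 14 and 40 to 121 and 124 counts (log2 fold change 2.10, standard error 0.421, adjusted p = 0.00204), with control libraries that differed widely from each other. *SMPD1*, acid sphingomyelinase, rose from 18.7 to 30.3 CPM (log2 fold change 0.70, adjusted p = 3.47e-05). *GUSB*, beta-glucuronidase, fell from 107 to 70.5 CPM (log2 fold change -0.60, adjusted p = 2.31e-06), and *NPC2*, the lysosomal cholesterol carrier, from 99.2 to 64.2 CPM (log2 fold change -0.63, adjusted p = 3.23e-06). *GUSB* (-0.47) and *NPC2* (-0.54) were under 1.5-fold with the GC and length trends removed, and *CTSS* (1.94) and *SMPD1* (0.85) stayed past it. Counts of *LAMP2* per count of *LAMP1* went from 0.481 and 0.457 to 0.532 and 0.587 across the same libraries. This rise was not kept with the GC and length trends removed, where *LAMP2* was at -0.11 and *LAMP1* at 0.06.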

How the data were processed

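RNA-seq was measured in 4 libraries, 2 control and 2 sgUSP22. The authors aligned reads to hg38 with HISAT2 (2.2.1), sorted them with Samtools (1.6) and deposited whole-number gene counts from StringTie (2.2.1), not divided by library size, and their notes also name DESeq2 (1.34.0). The annotation and strand setting are not given in the sources used here. StringTie derives counts from coverage, so low counts are imprecise.

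The count table was fitted with edgeR 4.0.16 (R 4.3.3), using filterByExpr (minimum count 10), TMM factors, glmQLFit and glmQLFTest, and p-values were adjusted by Benjamini-Hochberg over all 15150 tested genes. A call needed an adjusted p under 0.05 and at least a 1.5-fold difference. A standard error is the size of the log2 difference over the root of F. The procedure was tested on simulated data. Alternatives were DESeq2 1.42.0 (independent filtering at 0.1), a replicate block, a test against 1.5-fold, scaling by RLE factors or by library size only, filtering by a mean of 50 counts or not at all, removal of lowess trends (span 0.3) on GC content and length, leaving out each library, and coding length. Leaving out a library leaves its group without a replicate, so an adjusted p can cross the threshold there with little change in the log2 fold change. Positions, lengths and GC content came from GENCODE (hg38), which matched 25763 of 28278 symbols and all 45 members. GC content and length were known for 94.9% of tested genes. Promoters came from RefSeq (GRCh38.p14) for 39 members.

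Replicates differed beyond sampling noise (mean chi-square per gene 7.86 in control and 8.25 in sgUSP22 libraries). Columns were assigned by name, with 0 left over. Full statistics are given for called members and for the member with the lowest p and the most abundant per length in each of 7 roles, all ferritinophagy genes, and up to 4 called genes per direction in each other list. Other members are given more briefly. *RETREG1*, *ULK1*, the mitophagy and ER-phagy genes not called, and the neighbours were named after their values were seen. The members and lists were chosen with earlier results of these data known.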

Additional observations from a re-analysis of the deposited data

How the results depend on the processing

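The 1 member called higher became 0 in a test against 1.5-fold and 0 with the GC and length trends removed, and ranged from 0 to 1 on leaving out each library, *ATG4A* (0.646) replacing *RB1CC1* (0.581) without control replicate 1. The 0 members called lower became 1 with those trends removed (*ATG12*) and ranged from 0 to 1, *ULK4* being called without sgUSP22 replicate 2. Members past the adjusted p threshold numbered 0 higher and 0 lower in the test against 1.5-fold, which by construction asks for a larger change, and ranged from 10 to 12 higher and 8 to 13 lower on leaving out each library. The median log2 fold change was 0.027 with library size alone and 0.032 with the trends removed, and ranged from -0.033 to -0.003 on leaving out each library. With the replicate number as a block, 14 members were higher and 12 lower, *ATG2A* and *SQSTM1* passing. The deviations of same-numbered libraries correlated at 0.042. With 2 libraries a group this cannot tell whether they shared a culture or batch, and the labels give only the number. With library size alone the sign turned, to small positive values, for *ATG16L2* (0.022), *ATG101* (0.001), *ULK1* (0.033), *LAMP1* (0.007), *ATG14* (0.008) and *TFE3* (0.038). With the trends removed it turned for *ATG4C* (-0.053), *ATG16L2* (0.157), *ATG101* (0.152), *ULK1* (0.096), *LAMP1* (0.056), *ULK2* (-0.084), *PIK3C3* (-0.069), *ATG4B* (0.051), *ATG9A* (0.004), *SQSTM1* (0.026), *TFE3* (0.114) and *LAMP2* (-0.108). On leaving out each library in turn it turned within the ranges of *LAMP1* (-0.109 to 0.004), *ATG14* (-0.130 to 0.026), *ATG16L2* (-0.148 to 0.096), *ULK1* (-0.053 to 0.001), *ULK2* (-0.035 to 0.131) and *ATG4D* (-0.024 to 0.054). Of these genes, *ATG9A*, *LAMP2* and *PIK3C3* had passed the threshold, and the cause was not tested. Over 67 named genes and 8 settings that kept all libraries, 454 of 536 comparisons kept direction and side of the threshold, 52 lost the threshold (41 of them in the test against 1.5-fold), 12 gained it and 18 turned. Of the 10 members highest per exon length, 7 were also among the 10 highest per coding length. With 2 libraries a group and no measured protein, small differences rest on few libraries and say nothing of autophagic flux.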
